A study of Mus musculus with 6 samples.

Results

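The genes described here encode enzymes that break down or use arginine, tryptophan, phenylalanine, histidine or ornithine or, for Ass1, help to rebuild arginine. The 10 genes are Arg1, Arg2, Nos2, Ido1, Il4i1, Kmo, Kynu, Ass1, Odc1 and Hdc. All probes whose single annotated symbol is one of these names were taken, which gave 13 of the 45281 probes on the array, with 2 probes each for Arg1, Nos2 and Hdc and 1 for each other gene. Mouse bone marrow cells were cultured with GM-CSF, which drives dendritic cell development, for 1 week and were then given ovalbumin coupled to a fluorescent dye. Flow cytometry parted mannose receptor (MR) positive from MR-negative cells by uptake of this ovalbumin, not by a stain of the receptor, and RNA of 3 samples of each population was put on Illumina bead arrays. Both populations had the same growth factor and were offered the same ovalbumin, and the labels used here give no strain, genotype, age or sex of the mice. Sample titles number the arrays M1 to M3 in each population without saying whether a number is a mouse, a culture or a day, so the p-values reflect only how far these samples scatter, and that scatter may be technical.

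T cells need arginine and tryptophan from their surroundings to divide, and myeloid cells can restrain them by destroying these amino acids or by releasing the products. Ido1 opens the kynurenine pathway by oxidising tryptophan, Kmo and Kynu carry kynurenine onward, and Il4i1 is a secreted oxidase of phenylalanine and other aromatic amino acids that releases hydrogen peroxide. Arginase (Arg1, Arg2) and the inducible nitric oxide synthase (Nos2) compete for arginine, Ass1 helps to rebuild it from citrulline, Odc1 turns ornithine into polyamines, and Hdc makes histamine.

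Each array detected 15988 to 16641 probes at a detection p under 0.05 (36.8% of all probes were tested), and precision is limited by having 3 arrays a population. Mrc1, which encodes the mannose receptor, was 6.21-fold higher in MR-positive cells (adjusted p = 0.0051 by limma), which checks the labels. Of the defining dendritic cell markers, Itgax, Cd74 and H2-Ab1 were detected on all 6 arrays, Flt3 on 0, and Zbtb46 on 3 MR-negative and 0 MR-positive arrays. At an adjusted p under 0.05, limma called 6 of 7 tested dendritic cell markers lower and 1, Itgax, higher in MR-positive cells. Of all tested genes, 7.13% were lower and 8.19% higher. Zbtb46 met the detection filter through the MR-negative arrays alone.

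The kynurenine pathway enzymes Kmo and Kynu, the oxidase Il4i1 and the histamine-forming enzyme Hdc were lower in MR-positive cells, and of the arginine enzymes only Ass1 passed the test. Of the 10 genes, 9 had a probe that was detected on at least 3 of the 6 arrays and was therefore tested with limma. Il4i1, Kmo, Kynu and Hdc fell, Ass1 rose, and Ido1, Arg1, Arg2 and Odc1 did not pass at an adjusted p under 0.05. Among all 9370 tested genes with 1 probe each, 7.13% fell and 8.19% rose. Over probes, 5 of the 11 tested fell and 1 rose, where 6.58% of all 16686 tested probes fell and 7.19% rose. The median log2 difference of the 9 genes was -1.89, beside 0.02 over all tested genes. The enzymes were chosen with earlier results of these data known, so these shares and medians describe them and test nothing. With the title number as a block in the fit, 5 of the 9 genes fell and 2 rose, as Ido1 and Arg1 then passed, where 13.6% of all genes fell, 16.4% rose and 30% passed in all. Populations did not overlap for 7 of the 9 genes, and for 34.6% of all tested genes. These arrays measure RNA of sorted pools, in which fewer cells of a type and less RNA per cell cannot be told apart.

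**Figure D1:**
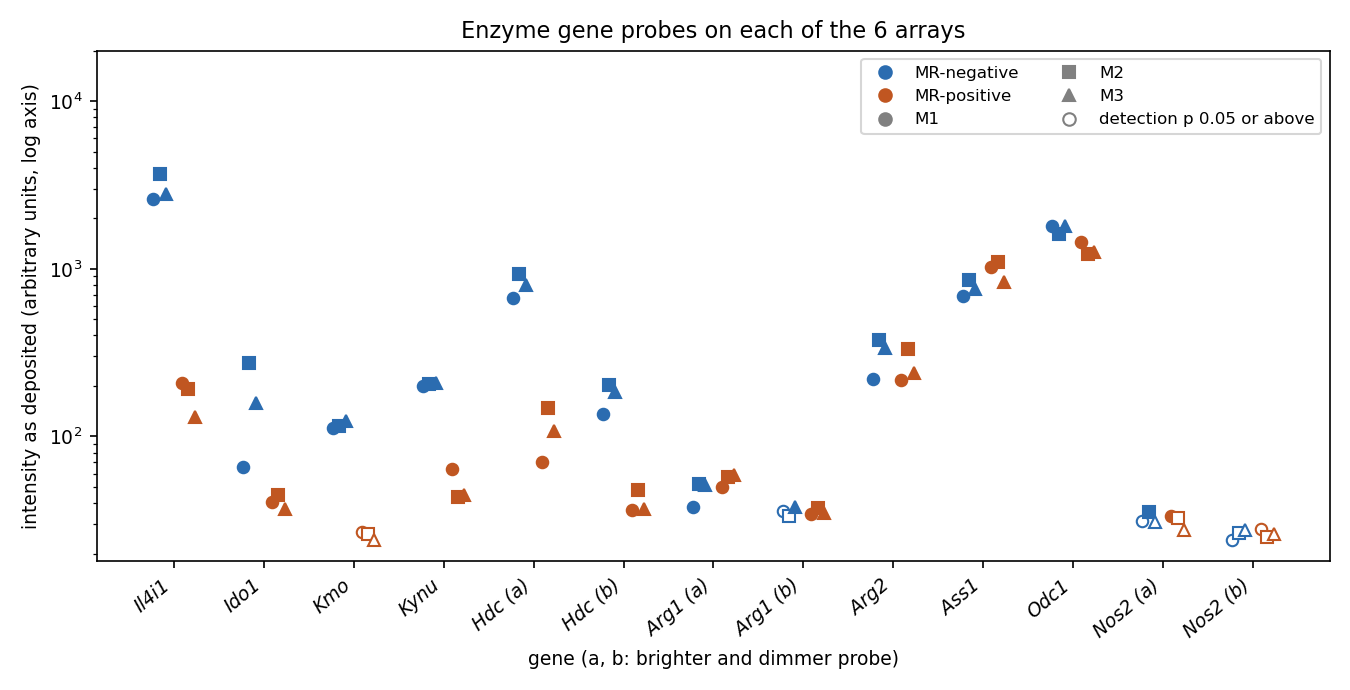
Deposited intensity (arbitrary units, log axis) of the 13 probes on the 6 arrays. Colours give the population, shapes the title number, and open symbols a detection p of 0.05 or above. Il4i1 lies between 2621 and 3701 in MR-negative and between 129.7 and 207.4 in MR-positive cells, whereas the Arg2 ranges overlap.

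**Figure D2:**
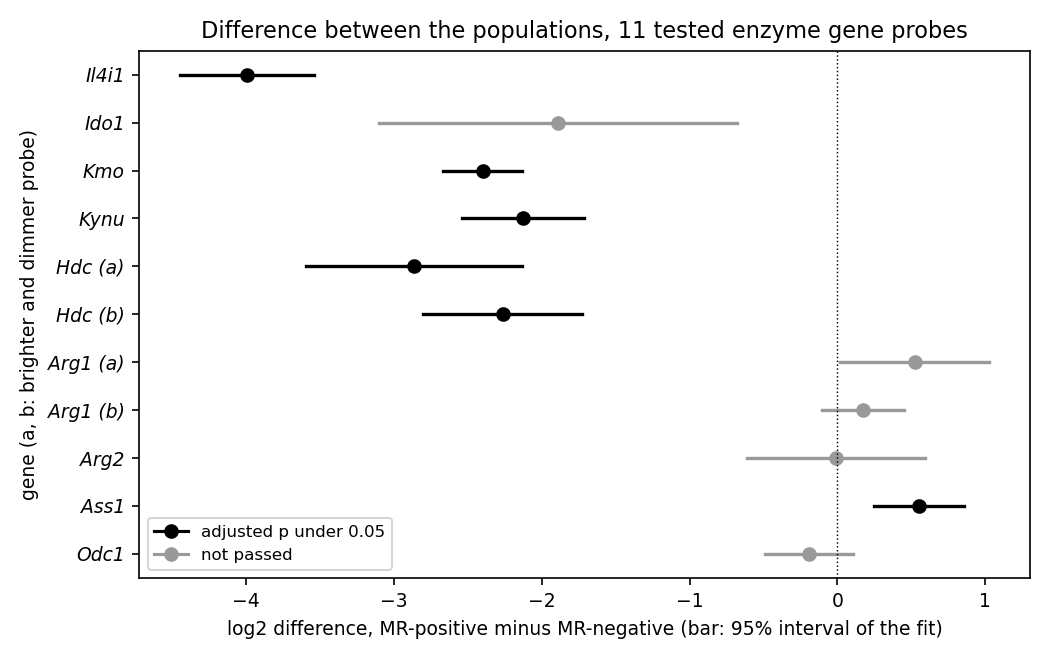
Log2 difference (MR-positive minus MR-negative) of the 11 tested probes with the 95% interval of the fit. Black points have an adjusted p under 0.05. The Il4i1, Kmo, Kynu and Hdc intervals lie wholly below -1.71, and those of Arg2 and Odc1 span 0.

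Promoters of 4 of the genes that passed are shown because their genes moved together, or, for Ass1, against the others. The RefSeq table held a promoter for 5 of the 10 genes, Il4i1, Kmo, Hdc, Ass1 and Odc1, on build GRCm38.p6. It had none for Ido1, Kynu, Arg1, Arg2 and Nos2. Each sequence runs 5′ to 3′ along the gene, from 250 bases before to 50 bases after its start. Il4i1 is read from chr7:44836038-44836337, plus strand, Kmo from chr1:175631943-175632242, plus strand, Hdc from chr2:126618629-126618928, minus strand, and Ass1 from chr2:31470020-31470319, plus strand. Capitals mark GAGGAA on either strand, a longer form of the Ets core GGAA that lies at the heart of many sites of the myeloid factor PU.1. Copies of the shorter GGAA were not searched for and are not marked.
Il4i1: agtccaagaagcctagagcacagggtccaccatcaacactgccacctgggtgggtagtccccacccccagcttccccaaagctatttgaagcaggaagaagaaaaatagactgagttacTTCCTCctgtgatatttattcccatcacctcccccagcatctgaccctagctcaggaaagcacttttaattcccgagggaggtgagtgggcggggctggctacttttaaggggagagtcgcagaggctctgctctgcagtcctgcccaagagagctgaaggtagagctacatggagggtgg
Kmo: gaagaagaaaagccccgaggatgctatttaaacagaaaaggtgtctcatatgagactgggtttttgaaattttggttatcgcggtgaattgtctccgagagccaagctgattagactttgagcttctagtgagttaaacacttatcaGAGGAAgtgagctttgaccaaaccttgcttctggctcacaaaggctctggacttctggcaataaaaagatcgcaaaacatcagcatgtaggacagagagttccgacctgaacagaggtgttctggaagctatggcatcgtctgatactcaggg
Hdc: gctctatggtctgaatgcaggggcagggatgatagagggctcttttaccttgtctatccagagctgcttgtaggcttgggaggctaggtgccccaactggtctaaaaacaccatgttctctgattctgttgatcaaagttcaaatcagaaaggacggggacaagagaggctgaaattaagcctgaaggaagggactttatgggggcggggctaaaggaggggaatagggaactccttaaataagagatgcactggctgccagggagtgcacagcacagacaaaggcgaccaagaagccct
Ass1: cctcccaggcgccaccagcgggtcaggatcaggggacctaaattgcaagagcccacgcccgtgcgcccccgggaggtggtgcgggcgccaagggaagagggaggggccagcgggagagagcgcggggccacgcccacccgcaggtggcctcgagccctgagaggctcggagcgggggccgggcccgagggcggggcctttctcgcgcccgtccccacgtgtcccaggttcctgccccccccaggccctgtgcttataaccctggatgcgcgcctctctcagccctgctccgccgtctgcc
GAGGAA occurred once in the Il4i1 promoter, at position -131 from the gene start on the opposite strand. In the Kmo promoter GAGGAA occurred once, at position -103 on the same strand. This motif was present in 28.3% of the 32851 promoters of the same length. Searches on both strands for the STAT motif TTC and GAA with 3 bases between (8.3% of promoters) or 4 bases between (6.95%), the interferon regulatory factor motif of GAAA repeated after 2 bases (3.44%), the kappa B motif GGG and TTTCC with 2 bases between (1.63%) and the AP-1 motif TGANTCA (7.81%) found no match in these windows. The matches shown overlap no other motif searched. G and C made up 54% of the Il4i1, 44.3% of the Kmo and 50.7% of the Hdc window, against 74% for Ass1. The window of Odc1, which did not pass, is not printed. It held 78% G and C and had 0 motif matches.

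Il4i1 had the largest difference among the 10 genes and ranked as the 12th deepest fall of the 9370 tested. Its intensity was 2621, 3701 and 2798 on the MR-negative arrays M1 to M3, and 207.4, 193.0 and 129.7 on the MR-positive ones. All 3 MR-positive arrays lay far below all 3 MR-negative arrays, and the gene was detected on all 6. MR-negative cells had a normalized log2 level of 11.44 ± 0.26 (SD, n = 3), against 7.45 ± 0.29 (SD, n = 3) for MR-positive cells. The log2 difference was -3.99 ± 0.19 (SE), or 15.9-fold lower, with a limma adjusted p of 5.7e-05. The genes with the most similar centred profile over the 6 arrays were Traf4, an adaptor of TNF receptor family signalling, and Dpp4, the cell surface peptidase CD26. Their profiles differed from that of Il4i1 by 0.17 and 0.23 log2 units (root mean square), and they were chosen from 9361 genes with no test.

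Kmo, the monooxygenase that hydroxylates kynurenine, gave a signal only in MR-negative cells. Its intensity there was 112.9, 115.0 and 123.0, and in MR-positive cells 26.89, 26.12 and 24.07, where its detection p was 0.359, 0.483 and 0.685. The MR-negative arrays were close to each other, and no MR-positive array was above background. Kmo thus met the detection filter through the MR-negative arrays alone, and its test rests on MR-positive values at background. The fall was therefore at least 4.21-fold (log2 difference -2.40 ± 0.11, adjusted p = 5.5e-05), comparing with the lowest level of a detected probe on each MR-positive array or the probe's own level, whichever was higher. Kynu, the hydrolase that cleaves kynurenine and its hydroxylated form, had intensities of 199.3, 205.4 and 208.9 in MR-negative and 63.92, 43.34 and 44.55 in MR-positive cells. It was detected on all 6 arrays, the populations did not overlap, and M1 was the highest MR-positive array. Its log2 difference was -2.13 ± 0.18, or 4.37-fold lower (adjusted p = 4.7e-04). The nearest profiles were those of Garnl3 and Plet1 for Kmo, and of the kinase gene Vrk1 and the vesicle transport GTPase gene Rab27a for Kynu, at 0.11 to 0.13 log2 units over the 6 arrays.

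Ido1, the entry enzyme of the pathway, varied more between the MR-negative arrays (log2 SD 1.19) than Kmo (0.10) and Kynu (0.06) did. On the MR-negative arrays M1 to M3 its intensity was 66.02, 273.7 and 157.9, and on the MR-positive arrays 40.43, 44.85 and 36.64. Every MR-positive array was below every MR-negative array, but M1 was by far the lowest of the MR-negative ones. The log2 difference of -1.89 ± 0.52 did not pass (adjusted p = 0.053, 95% interval -3.10 to -0.68). Within the title numbers the differences were -0.67 for M1, -2.76 for M2 and -2.25 for M3. With the title number as a block the adjusted p was 0.0072. Leaving out the M1 array of the MR-negative cells gave -2.53, which passed (adjusted p = 0.0011), as it did without both M1 arrays (-2.50, adjusted p = 0.0013). Without any 1 of the other 5 arrays Ido1 missed the threshold (adjusted p 0.105 to 0.163), with the smallest difference, -1.36, without the MR-negative M2 array.

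Around these members, 20 other genes of tryptophan use were listed, 11 of them tested, of which limma called 2 lower and 0 higher (4 had an unadjusted p under 0.05), beside 15.3% of all tested genes passing. The share that passed, 18.2%, was near that of all tested genes. With the block 3 fell and 1 rose, where 30% of all tested genes passed. Haao, the dioxygenase that acts after Kynu on the way to quinolinic acid, had the largest change among the 11. Its brightest probe read 520.9, 745.9 and 573.0 in MR-negative and 137.4, 108.4 and 92.86 in MR-positive cells, with no overlap. It was 5.10-fold lower (log2 difference -2.35 ± 0.18, adjusted p = 3.3e-04), and its dimmer probes were 4.98-fold and 3.74-fold lower and also passed. Ahrr, the repressor of the aryl hydrocarbon receptor that senses kynurenine, was 1.79-fold lower (-0.84 ± 0.13, adjusted p = 0.0064). Other enzymes of tryptophan breakdown, Tdo2, Ido2, Aadat, Acmsd and Qprt, were detected on 0 arrays, and so was the probe of the receptor gene Ahr. Afmid, which acts between Ido1 and Kmo, differed by -0.15 ± 0.15 (adjusted p = 0.59), and Kyat1, a transaminase of the branch to kynurenic acid, by 0.43 ± 0.13 (adjusted p = 0.066, and 0.031 with the block). The median of the 11 genes was -0.15.

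Hdc, the decarboxylase that makes histamine, fell on both of its probes. The brighter probe read 670.3, 928.3 and 795.2 in MR-negative cells and 70.11, 148.2 and 108.3 in MR-positive cells. M1 was the lowest array of each population, M2 the highest, and the populations were far apart. The log2 difference was -2.86 ± 0.31, or 7.28-fold lower (adjusted p = 0.0014). The dimmer probe, at 136.1 to 202.3 in MR-negative and 36.19 to 47.61 in MR-positive cells, was 4.80-fold lower (-2.26 ± 0.23, adjusted p = 0.0010). The nearest profiles were those of the membrane skeleton gene Epb41l3 and the chemokine gene Ccl5, at 0.20 and 0.23 log2 units.

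Mast cells and basophils are known sources of Hdc, and so are immature myeloid cells. Of 10 mast cell and basophil markers, 4 were tested and 0 passed by limma (1, Gata2, had an unadjusted p under 0.05, and 1 rose with the block), while Ms4a2, Mcpt4, Tpsb2 and Prss34 were detected on 0 arrays. Their summed intensity ran from 576.1 to 850.5 in MR-negative and from 630.3 to 773.2 in MR-positive cells. Kit was the largest part of this sum, with means of 384.4 in MR-negative and 445.6 in MR-positive cells. Undetected probes added background, so the sum does not measure how many of these cells were present. Of 8 neutrophil markers on the array, 7 were tested and 0 passed by limma, with 5 at an unadjusted p under 0.05. By contrast 6 fell with the block, where 13.6% of all tested genes fell. The summed neutrophil intensity was 5759 to 19400 in MR-negative and 3153 to 5188 in MR-positive cells. The part of neutrophil RNA in the Hdc difference was not tested.

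In the turnover of aromatic amino acids and histamine, 8 of 20 listed genes on the array were tested, of which limma called 1 lower and 0 higher, and 1 had an unadjusted p under 0.05 (median 0.03). The share that passed, 12.5%, was near the 15.3% of all tested genes. The gene that fell was Aoc1, the diamine oxidase that degrades histamine. It read 60.41, 57.74 and 64.63 in MR-negative and 30.05, 28.96 and 32.79 in MR-positive cells, where 1 of 3 arrays detected it. It was at least 1.96-fold lower (log2 difference -1.10 ± 0.13, adjusted p = 0.0020). The probe of Hnmt, the other main histamine-degrading enzyme, was detected on 0 arrays.

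Of the arginine enzymes Ass1 rose, Arg1, Arg2 and Odc1 did not pass, and Nos2 was not tested. Arg1, the cytosolic arginase of alternatively activated macrophages, was dim, with 38.02, 51.70 and 51.42 in MR-negative and 49.64, 56.89 and 58.58 in MR-positive cells. These deposited intensities overlapped, and the normalized log2 values were separated by 0.00095. For the brighter probe the log2 difference of 0.52 ± 0.22 missed the threshold (adjusted p = 0.17, 95% interval 0.02 to 1.03) and passed with the block (adjusted p = 0.013). The second Arg1 probe, detected on 1 MR-negative and 3 MR-positive arrays, differed by 0.17 ± 0.12 (adjusted p = 0.41).

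Arg2, the mitochondrial arginase, was at 219.5, 373.4 and 336.4 in MR-negative and 217.0, 332.8 and 240.1 in MR-positive cells. The ranges overlapped almost fully, with M1 the lowest array in each population. The log2 difference was -0.01 ± 0.26 (adjusted p = 0.99), with a 95% interval of -0.61 to 0.60, so a change of up to about that size cannot be told from none. Nos2 could not be tested. Its brighter probe was detected on 1 MR-negative array (M2, 35.46) and 1 MR-positive array (M1, 33.38), with all 6 intensities between 27.70 and 35.46, and its dimmer probe on 0 arrays.

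Ass1, the argininosuccinate synthase that recycles citrulline, was the single member to rise. It read 691.6, 851.4 and 760.3 in MR-negative and 1021, 1096 and 828.4 in MR-positive cells. The deposited intensities overlapped, since M3 of the MR-positive cells lay below M2 of the MR-negative cells, and the normalized values did not. The log2 difference was 0.55 ± 0.13, or 1.47-fold higher (adjusted p = 0.031). It did not pass without any 1 of the 6 arrays (adjusted p 0.051 to 0.117), nor without both M1 arrays (0.058). With arrays scaled to equal medians it was 0.40 and did not pass (adjusted p = 0.14), a setting that moves the median of all tested probes to -0.11 and the share of calls that are higher from 52.2% to 30.6%. The nearest profiles were those of Me1, the cytosolic malic enzyme, and Fech, the last enzyme of haem synthesis, at 0.05 and 0.06 log2 units.

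Odc1, the first enzyme of polyamine synthesis, read 1792, 1609 and 1789 in MR-negative and 1451, 1233 and 1267 in MR-positive cells. The deposited intensities did not overlap, but after normalization the populations did. The log2 difference was -0.19 ± 0.13 (adjusted p = 0.39, 95% interval -0.49 to 0.10). Of 23 further arginine and polyamine genes on the array, 15 were tested, of which limma called 1 higher and 0 lower (4 had an unadjusted p under 0.05), against 3 and 1 with the block. The share that passed, 6.67%, was below the 15.3% of all tested genes, and with the block 30% of all tested genes passed. Dhps, which uses the polyamine spermidine to modify the translation factor eIF5A, rose 1.37-fold (0.45 ± 0.11, adjusted p = 0.041). It missed the threshold whichever array was left out (adjusted p 0.062 to 0.146). Oat, which takes ornithine away from polyamine synthesis, differed by -0.40 ± 0.16 (adjusted p = 0.16), Asl, the partner of Ass1, by 0.12 ± 0.14 (adjusted p = 0.67), and Gch1, which opens the synthesis of the Nos2 cofactor, by 0.09 ± 0.20 (adjusted p = 0.84).

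Of 14 tested amino acid transporter genes 3 rose, 2 fell and 9 missed the threshold, or 35.7% passing beside 15.3% of all tested genes. Slc7a2, a carrier of arginine and other cationic amino acids, read 53.36, 71.91 and 95.87 in MR-negative and 109.8, 216.1 and 254.3 in MR-positive cells. M1 was the lowest array of each population and the populations did not overlap. It rose 3.26-fold (1.71 ± 0.42, adjusted p = 0.036), and its dimmer tested probe rose 2.45-fold (1.29 ± 0.32, adjusted p = 0.038). The probe of Slc7a1, the widespread arginine carrier, was detected on 0 arrays. Slc7a8, an exchanger of large neutral amino acids, rose 1.90-fold (0.92 ± 0.25, adjusted p = 0.047), with a dimmer probe that did not pass (0.50 ± 0.17, adjusted p = 0.11). The aromatic amino acid carrier gene Slc16a10 also rose (0.45 ± 0.12, adjusted p = 0.043) and is named although it lies outside the 4 largest. Slc7a7, part of a cationic amino acid exporter, fell 1.76-fold (-0.82 ± 0.21, adjusted p = 0.042), and Slc38a1, a glutamine carrier, 1.53-fold (-0.61 ± 0.16, adjusted p = 0.046). A second Slc7a7 probe differed by -0.37 ± 0.20 (adjusted p = 0.30) and the dimmer Slc38a1 probes by -0.54 to -0.13 (adjusted p 0.075 to 0.60), so these did not pass.

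Each of these transporter calls lay near the threshold and was lost in most fits with 1 array left out. Slc7a2 passed without the MR-positive M1 array and missed the threshold without any of the other 5 (adjusted p 0.058 to 0.122). Slc7a8 and Slc7a7 passed only without the MR-negative M1 array (otherwise 0.092 to 0.16 and 0.057 to 0.144), Slc38a1 only without the MR-negative M3 array (otherwise 0.062 to 0.153), and Slc16a10 missed the threshold whichever array was left out (0.074 to 0.151). With any 1 array left out, 0 to 2 transporters passed, and with the block 5 rose and 2 fell, where 30% of all tested genes passed. The median of the 14 genes was 0.01.

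Cells short of an amino acid switch on a set of genes through the kinase Gcn2 (Eif2ak4) and the transcription factor Atf4. Of 17 tested genes of this response, 2 rose, 2 fell and 13 did not pass, with a median of -0.08, or 23.5% passing beside 15.3% of all tested genes. With the block 4 rose and 5 fell, where 30% of all tested genes passed. Chac1, a glutathione-degrading enzyme, read 263.1, 162.1 and 140.5 in MR-negative and 58.75, 39.41 and 32.52 in MR-positive cells, with M1 highest in both. It was 4.88-fold lower (-2.29 ± 0.32, adjusted p = 0.0041). Sesn2, a stress protein that restrains mTOR, was 2.59-fold lower (-1.37 ± 0.33, adjusted p = 0.033), and its dimmer tested probe was at -0.40 ± 0.18 (adjusted p = 0.20). Vldlr, a lipoprotein receptor, had no detected MR-negative array and 3 detected MR-positive ones, and was higher by at least 1.82-fold (adjusted p = 0.030), with dimmer tested probes, likewise undetected in MR-negative cells, higher by at least 1.62-fold (adjusted p = 0.040) and, short of the threshold, at least 1.28-fold (0.063). The tested Vldlr probes met the detection filter through the MR-positive arrays alone. Cebpb, a transcription factor of myeloid cells, rose 1.43-fold (0.51 ± 0.12, adjusted p = 0.027). Atf4 itself differed by 0.03 ± 0.17 (adjusted p = 0.94), and Asns, asparagine synthetase, by -0.43 ± 0.17 (adjusted p = 0.14, and 0.036 with the block).

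Of the 4 shortage response genes that passed, Chac1 passed without each single array. Sesn2 did not pass without the MR-negative M1, either M2 or the MR-positive M3 array (adjusted p 0.060 to 0.113), Vldlr passed only without the MR-positive M1 array (otherwise 0.050 to 0.113), and Cebpb did not pass without either M2 or either M3 array (0.081 to 0.108). With equal medians the Cebpb difference was 0.25 (adjusted p = 0.27).

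**Figure D3:**
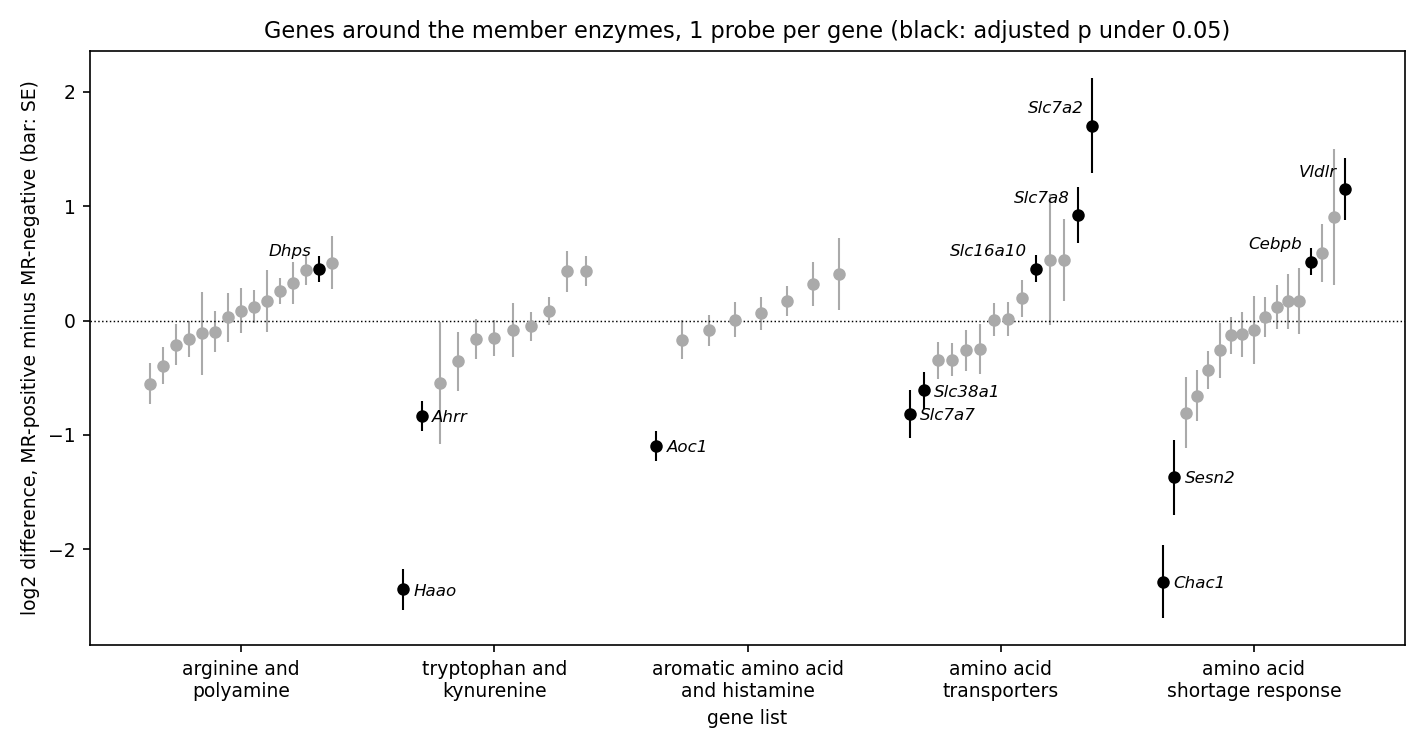
Log2 difference (MR-positive minus MR-negative, bar SE) of each tested gene in 5 lists around the 10 enzymes, ordered within a list. Black points with names passed at an adjusted p under 0.05. Haao and Chac1 lie below -2, and Slc7a2 is the highest point.

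Markers of other cell states moved with these enzymes. All 7 tested markers of mature dendritic cells fell, among them Ccr7, the receptor that guides these cells to lymph nodes (-3.23 ± 0.28, adjusted p = 5.6e-04), and Fscn1, which bundles actin (at least 12.7-fold lower, adjusted p = 1.4e-04). Their summed intensity was 3620 to 5248 in MR-negative and 1381 to 1539 in MR-positive cells. Ccl22, 1 of the 7, was detected on 3 MR-negative and 0 MR-positive arrays. It thus met the detection filter through the MR-negative arrays alone. Of all tested genes, 7.13% fell. Il4i1 and Ido1 are known to be induced as dendritic cells mature, and the part of maturation in the enzyme differences was not tested. Of 7 tested macrophage markers, 2 rose, Mertk (2.10 ± 0.28, adjusted p = 0.0033) and C1qc (1.27 ± 0.28, adjusted p = 0.026), and 0 fell, and 3 had an unadjusted p under 0.05, with summed intensities of 4153 to 4952 in MR-negative and 3795 to 4735 in MR-positive cells. With the block 3 rose and 1 fell, as C1qb (adjusted p = 0.0017) was added among the rises and Fcgr1 (0.0046) fell. Over all tested genes 15.3% passed, and 30% with the block. C1qc did not pass without the MR-positive M1, the MR-negative M2 or either M3 array (adjusted p 0.050 to 0.094).

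Some lymphoid markers also fell in MR-positive cells. Of 4 tested T cell markers 2 fell, Cd3g and Cd3d (3 with the block, which added Thy1 at an adjusted p of 0.0022), while Cd247, Cd4 and Cd8a were detected on 0 arrays, and the summed intensity was 2391 to 4465 in MR-negative and 526.9 to 741.5 in MR-positive cells. Of 3 tested NK cell markers 2 fell, with sums of 610.3 to 1828 and 233 to 265.5, while Ncr1, Klrb1c, Gzmb and Eomes were detected on 0 arrays. Of 3 tested B cell markers 1 fell, with sums of 183.7 to 265.6 and 139.3 to 169.4, and Ms4a1 and Pax5 were detected on 0 arrays. These sums include the background of undetected probes. In MR-negative cells Cd3g was the largest part of the T cell sum, with means of 2565 in MR-negative and 44.95 in MR-positive cells. Klrd1 was the largest part of the NK cell sum there (916.8 and 38.38), whereas the T cell marker Cd28 had means of 430.5 and 428.6. Cd3d, Klrk1 and Blk, among the markers that fell, were detected on 3 MR-negative and 0 MR-positive arrays. They met the detection filter through the MR-negative arrays alone. Over all tested genes 7.13% fell, and 13.6% with the block. The part of lymphoid cells in the enzyme differences was not tested.

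The falls of Il4i1, Kmo, Kynu and Hdc passed under all 15 alternatives run for each. Their adjusted p did not exceed 0.0020 for Il4i1, 0.0013 for Kmo, 0.0063 for Kynu and 0.019 for Hdc. Ido1 passed under 5 of 15, Ass1 under 7 of 15 and Arg1 under 1 of 15, the block. Arg2 and Odc1 passed under 0 of 15.

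**Figure D4:**
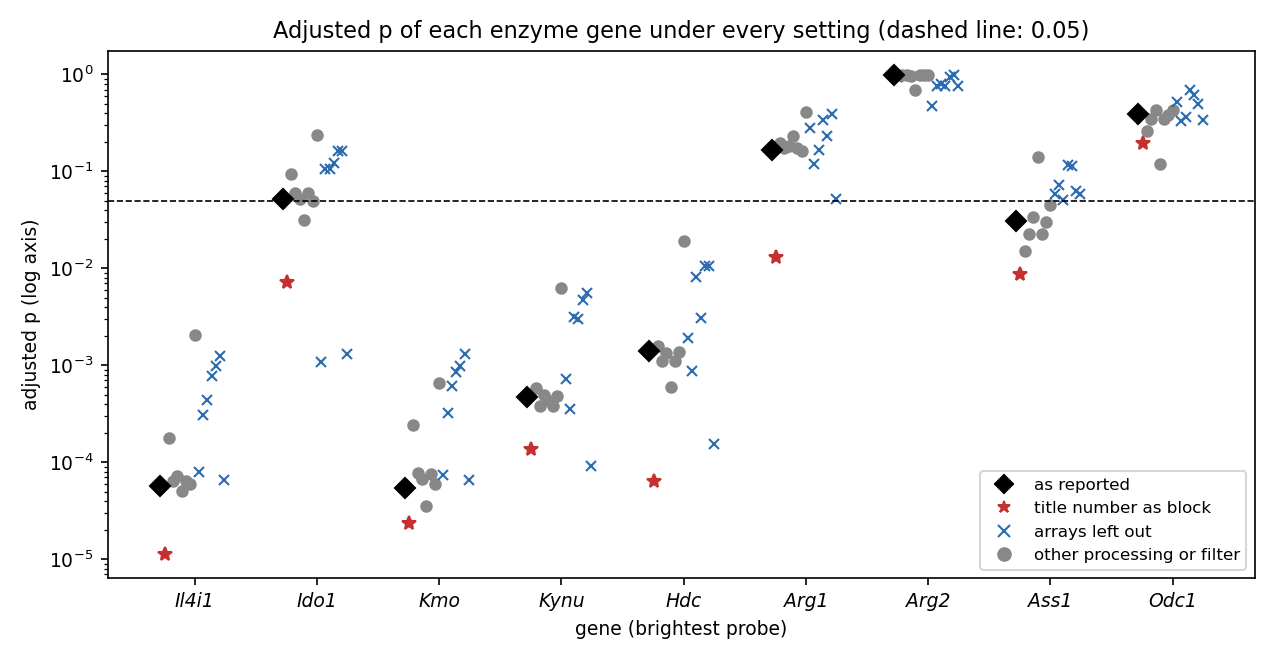
Adjusted p (log axis) of the 9 tested genes by the brightest probe, as reported and under each of 15 alternatives. The dashed line is 0.05. Il4i1, Kmo, Kynu and Hdc lie below the line throughout, Ido1 and Ass1 fall on both sides of it, and Arg2 and Odc1 stay above it.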

How the data were processed

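RNA of 3 MR-negative and 3 MR-positive samples of GM-CSF bone marrow cultures, labelled as dendritic cells, was measured on Illumina bead arrays. The deposited table gives an intensity per probe and array, with array medians of 27.6 to 30.3, not background-subtracted or scaled, and per the file headers a p-value beside each. These p-values were whole multiples of 1 in 936, and each ranked most closely with the signal before it, so they were read as detection p. A second deposited table holds intensities that the authors had quantile normalized, and it was an alternative. The scanner and its software are not given in the sources used.

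Intensities were processed with neqc of limma 3.58.1 (R 4.3.3): background correction from the detection p, quantile normalization, an offset of 16 and log2. Probes with a detection p under 0.05 on at least 3 of 6 arrays, 16686, were tested with lmFit and eBayes, two-sided, adjusted by Benjamini-Hochberg over all of them. The brightest tested probe stood for a gene. On simulated data with these 16686 probes, 85 of 100 log2 changes of 2 and 54 of 100 of 1 were recovered, with 7 false calls. Its noise was independent and normal, with SDs shuffled among probes, and far fewer probes were changed than passed in the data. These rates therefore hold for that setting only.

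Of the 45281 probes 34885 had 1 gene symbol, 18 several and 10378 none. Named were the 10 enzymes with every probe, Mrc1, up to 4 genes per list with the largest change among those passing, the 2 nearest profiles of each member that passed, and markers that moved with a member. Other genes, and the 6 promoter motifs, were chosen after values were seen. Members and lists were chosen with earlier results of these data known. Samples with the same title number deviated together from their population means, with correlations of 0.708 for M1, 0.569 for M2 and 0.275 for M3. Between MR-negative and MR-positive arrays of unlike number they ran from -0.629 to 0.382, so the M3 pair did not stand apart. The numbers were taken to pair the arrays, from the data and not from the labels, and only the block alternative uses this pairing. Alternatives were the title number as a block, other background corrections and normalizations, the authors' table, other filters, gene means and arrays left out.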

Additional observations from a re-analysis of the deposited data

How the results depend on the processing

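With the title number as a replicate block, 4628 probes passed instead of 2298. Of 15 tested arginine and polyamine genes 4 passed instead of 1, and of 11 tested tryptophan and kynurenine genes 4 instead of 2. Of 17 tested shortage response genes 9 passed instead of 4. The share of all tested genes that passed was 30% instead of 15.3%. Of the enzymes Ido1 and Arg1 were added and 0 were lost. Leaving out 1 array, 1151 to 2544 probes, 5 to 6 enzyme probes and 4 to 5 enzyme genes passed. In the same settings 0 to 1 arginine and polyamine, 2 to 3 tryptophan and kynurenine, 1 to 2 aromatic and histamine, 0 to 2 transporter and 1 to 5 shortage response genes passed. Without both M1 arrays, 2 arginine and polyamine genes and 2 aromatic and histamine genes passed. Of the transporters, 0 passed with normexp at an offset of 50, 3 with cyclic loess, 3 with equal medians, 1 with no filter and 2 with gene means, where 2 arginine and polyamine genes passed. With no filter 2 shortage response genes passed. Arg2 changed sign, without passing, from -0.01 to 0.16 without the MR-positive M1 array, 0.16 without the MR-negative M2 array and 0.07 without the MR-negative M3 array, and over all single arrays it ran from -0.26 to 0.16. Counting these, 93 counts under an alternative stayed within 1.5 times of the reported count and 33 did not. The cause was not tested. Dim probes such as Nos2 and Arg1 lie close to background, which limits what can be seen there.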

Other observations

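Cyp1b1, a target of the aryl hydrocarbon receptor, read lowest on M1 among the MR-negative arrays. By the brightest probe, the same array read lowest for Ido1, Il4i1, Kmo, Kynu, Hdc, Arg1, Arg2 and Ass1. The trait is thus not particular to Cyp1b1 and Ido1. The Cyp1b1 intensity was 90.58, 230.3 and 229.8 on the MR-negative arrays M1 to M3 and 61.88, 163.7 and 108.5 on the MR-positive ones. Within each title number the MR-positive array was the lower one, and the log2 difference was -0.55 ± 0.53 (limma adjusted p = 0.58, and 0.019 with the title number as a block). The gene was singled out after its values were seen.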
